A study of Glycine soja with 14 samples.

Results

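The unnamed secondary metabolism genes of the wild soybean (Glycine soja) root were 52 probe sets, out of 58 that the study placed in its category of secondary metabolism. The study had drawn the category from its list of 1592 probe sets that changed over the time course on these same arrays. The 6 probe sets of the category left out here had a single gene symbol in the annotation of the array (IFR2, measured by 2 probe sets, CHS1, AMS1, GA2OX8 and SABATH1). Of the 52 members, 39 had no entry in that annotation, 12 had a LOC number and 1 had 2 LOC numbers, so they are known by the closest described protein, often from another species. By these descriptions 13 belonged to flavonoid metabolism, 7 to phenylpropanoid metabolism and 3 to terpenoid metabolism. The other members were 6 placed under jasmonate metabolism, 5 of the 2-oxoglutarate-dependent oxygenases, 3 resembling alkaloid enzymes, 2 ferrochelatases and 13 of mixed function. The jasmonate members were placed by enzyme family, and not all of their descriptions show a part in jasmonate synthesis. Because the members were chosen for changing on these arrays, their values and calls are a description. No call or adjusted p-value of a member is read as a test. Several probe sets can measure 1 gene, and for the members such sets are named side by side where both were above background. Companions of Gma.16735.2.S1_at, GmaAffx.78365.1.S1_at, GmaAffx.90530.1.S1_s_at and GmaAffx.49796.2.A1_at were below background and were not tested.

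Root tips of 3 cm were pooled from 3 plants of line G07256, aged 21 days and grown with 12 h of light a day by the labels, and hybridized to the Affymetrix Soybean Genome Array. The methods of the study state another plant age and another day length. The chip was designed on cultivated soybean (Glycine max), so a sequence difference between the species can lower a signal. There were 14 arrays, 2 at each of 7 times, from roots held in nutrient solution without stress (0 h) or for 0.5, 1, 3, 6, 12 or 24 h in the same solution with 50 mmol/L NaHCO3 at pH 8.5. Both 0 h arrays served as the control of every stress time, and unstressed roots of later hours were not analysed here, so that time in stress and hour of the day cannot be told apart. All plants shared the line and the growth conditions.

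Flavonoids, lignin precursors and soluble phenolics of plants all derive from phenylalanine through the phenylpropanoid pathway. In legumes a branch leads from chalcones to isoflavones and on to the pterocarpan phytoalexins, for which isoflavone reductase and the reductases that follow it are needed, and O-methyltransferases and glucosyltransferases decorate the products. Terpenoids are built from isoprene units, which plastids make through the methylerythritol phosphate pathway. Jasmonate arises from linolenic acid by lipoxygenase, allene oxide synthase and cyclase, and then 12-oxophytodienoate reductase, and it is a regulator of phytoalexin synthesis in many plants.

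The sequences in the sources that tie a member to a designed assay are the QRT-PCR primers of GmaAffx.81325.2.S1_at, and they are shown because they name the transcript of the flavonoid 3'-hydroxylase discussed below.
Sense primer: cgcgctgagtaaaacatacg
Antisense primer: ggaccaagtgatgtccgagt

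The deposited intensities were used on the log2 scale, where a difference of 1 is a doubling. The hybridization controls averaged 9.45 on 0.5 h replicate 1 and 9.29 on 12 h replicate 2, lower than the 10.09 to 10.75 of the remaining arrays. The spiked poly-A transcripts ranged from 5.60 and 5.64 at 0 h to 8.06 and 7.85 at 3 h, and at both of these times the arrays lay closer to each other than the times did. Of the markers of root, PHT1-3, PHT1-8 and PIN2A, 3 of 3 probe sets were above background. Of the green tissue markers (CAB3 and PSAD), 7 of 10 probe sets were above background as well, and their summed log2 intensity lay between 10.34 and 13.38. Both nodule markers (GLB3 and ENOD40B) were above background, with a summed log2 intensity of 10.31 and 11.11 at 12 h and of 8.26 to 9.94 on the other arrays. The median log2 of GLB3 was 9.20 and that of ENOD40B 6.94, so the sum mostly follows the single GLB3 probe set. In pooled root tips a change in the share of a cell type and a change in the RNA per cell cannot be told apart.

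Most members had a hump-shaped course. The summed intensity of the 52 probe sets, as log2, was 14.25 and 14.41 (0 h), 14.28 and 14.32 (0.5 h), 14.27 and 14.21 (1 h), 14.94 and 14.90 (3 h), 15.27 and 15.23 (6 h), 13.96 and 14.16 (12 h), and 13.76 and 14.05 (24 h). The arrays of 3 and 6 h lay above all others, and those of 12 and 24 h below all others. The mean of 28 members was highest at 6 h and that of 12 members at 3 h, while 25 were lowest at 24 h and 13 at 12 h. Among all probe sets tested, 17% were highest at 6 h and 11.4% at 3 h. At 6 h the arrays of 36 members lay both above those of 0 h, against 27.8% of all probe sets tested, and at 24 h those of 36 lay both below, against 39.4%.

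**Figure D1:**
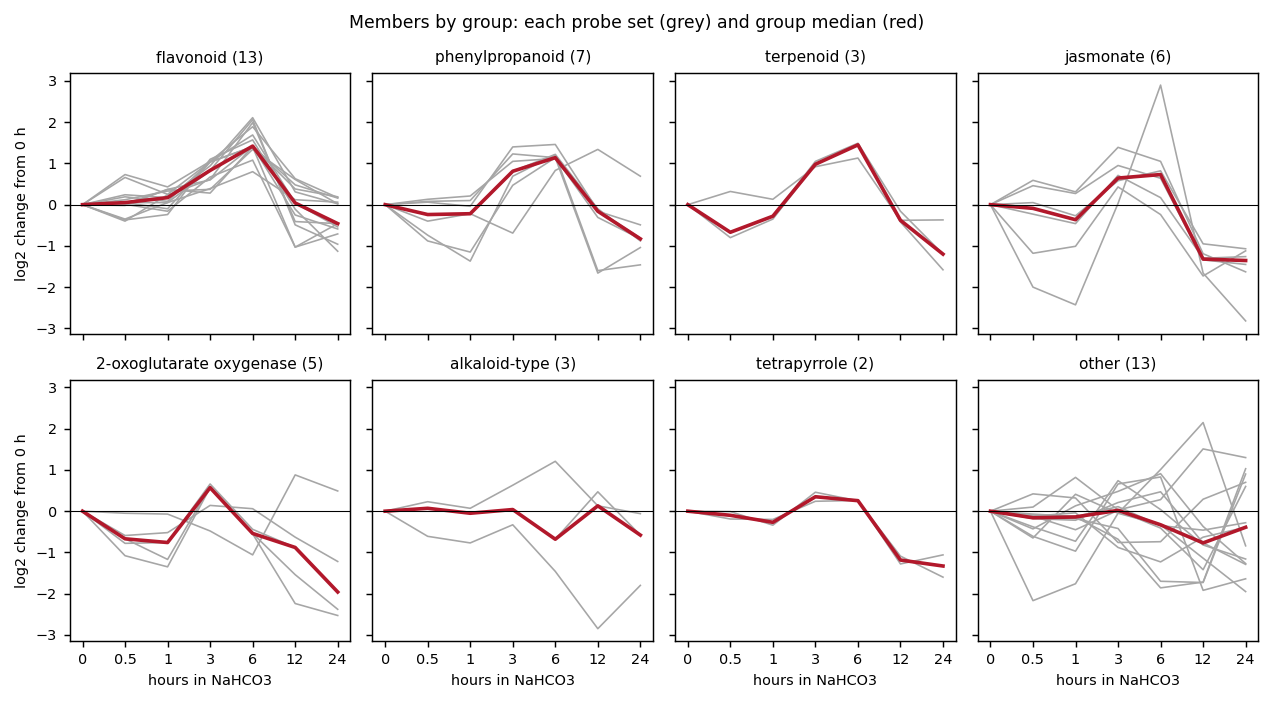
Log2 change from 0 h (vertical axis) at each time in NaHCO3 (horizontal axis, hours, evenly spaced) for the 52 members in their 8 groups, with the number of members in brackets. Each grey line is the mean of 2 arrays of a probe set and the red line is the group median, which reached 1.42 at 6 h in the flavonoid group, 1.14 in the phenylpropanoid group and 1.45 in the terpenoid group.

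A probe set was called up-regulated or down-regulated when limma gave p under 0.05 before and under 0.15 after Benjamini-Hochberg adjustment over all 28567 probe sets tested, the limits of the study. All 52 members passed the filter on low values. At 3 h, 22 members were up-regulated and 2 down-regulated, where 5% and 12% of all probe sets tested were. At 6 h, 31 were up-regulated and 9 down-regulated, beside 8.67% and 12.1% of all. At 12 h, 6 were up-regulated and 26 down-regulated, beside 7.95% and 16.4%. At 24 h, the counts were 6 and 31, beside 6.07% and 19.6%. At 0.5 h none was up-regulated and 5 were down-regulated (2.26% and 3.27% of all), and at 1 h none and 1 (0.179% and 0.375%, together 0.553%). Between 6 and 12 h, 40 members were lower and 6 higher at 12 h, beside 18.6% and 15.3% of all (33.9% in either direction). The members were chosen by the study's time-course test on these same arrays, so nothing is read from the shares. The count at 3 h depended on single arrays, with 9 up-regulated without 0 h replicate 1, 7 without 0 h replicate 2, 7 without 3 h replicate 1 and 9 without 3 h replicate 2. The count at 6 h was 20 without 6 h replicate 2. Of the 40 members called at 6 h, 24 were called in each fit that left out 1 array, and of the 46 called between 6 and 12 h, 42 were. Without 0.5 h replicate 1 and 12 h replicate 2, the arrays with low hybridization controls, 30 members were up-regulated at 6 h and 28 down-regulated at 12 h. With the methods' t-test after adjustment in place of limma, 11 members were up-regulated at 6 h, 1 at 3 h and none was called at 12 or 24 h. The scaling of the arrays moved the balance of calls over all probe sets, of which 70.6%, 58.2%, 67.3% and 76.3% were downward at 3, 6, 12 and 24 h as deposited. With quantile normalization the shares were 52.2%, 50.2%, 47.1% and 50.9%, and with centring of each array on its median 39.4%, 44.6%, 48.6% and 42.6%. At 0.5 h the share was 59.1% as deposited, 50.6% with quantile normalization and 47.2% with centring. The median of all probe sets at 3 h went from -0.14 to -0.04 and 0.03 under these scalings, and at 24 h from -0.13 to 0.04 and 0.09. The members' counts at 3 h were then 21 up and 2 down, and 28 and 2, and those of 24 h were 7 up and 27 down, and 7 and 26.

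**Figure D2:**
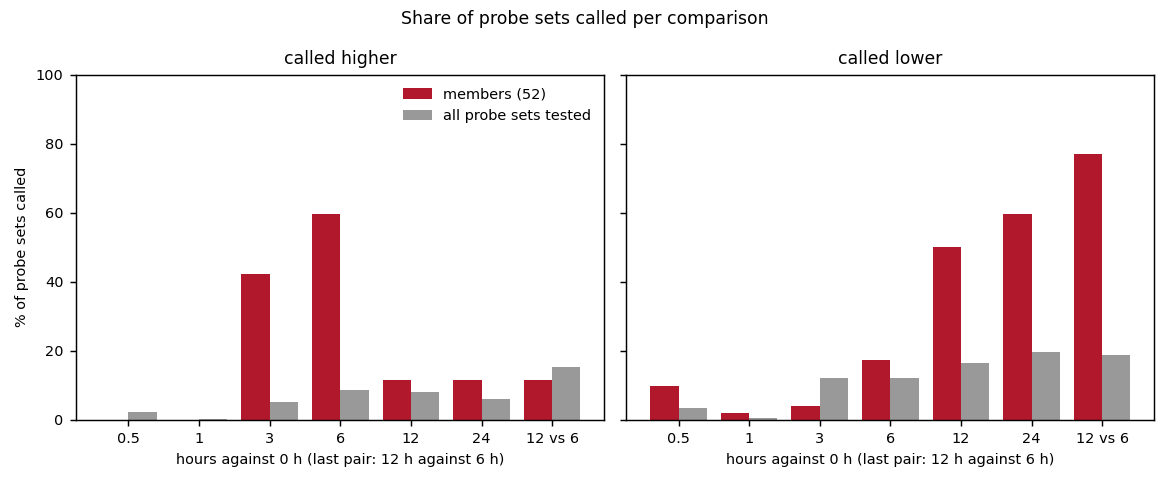
Percentage of probe sets called up-regulated (left) or down-regulated (right) per comparison, for the 52 members (red) and for all 28567 probe sets tested (grey). The members' bars are a description, since the members were chosen on these arrays. They stand at 59.6% higher at 6 h and 76.9% lower from 6 to 12 h.

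In the order of the stress times, from 0.5 to 24 h, the median log2 change of the members was -0.12, -0.13, 0.59, 0.87, -0.47 and -0.83. The same medians over all probe sets tested were -0.02, -0.01, -0.14, -0.05, -0.04 and -0.13. For 1533 probe sets of the other categories of the same time-course list they were -0.04, -0.08, 0.05, 0.13, -0.61 and -0.44. For the 6 category probe sets with a symbol they were 0.10, 0.25, 0.79, 1.27, -0.04 and 0.20. At 3 and 6 h the members' median stood above those of all probe sets and of the other categories, and below that of the 6. At 12 h it lay between those of all probe sets and of the other categories. Among the other categories taken singly, disease and defense had the highest medians, 0.42 at 3 h and 0.58 at 6 h. These differences were not tested. Of the 52 members, 24 were up-regulated at 3 or 6 h and then down-regulated at 12 or 24 h, beside 4.06% of all probe sets tested, and 11 were up-regulated at 3 or 6 h without being down-regulated later, beside 6.85%. A further 14 were down-regulated at 12 or 24 h without having been up-regulated at 3 or 6 h, beside 23.5%. The combination of up-regulation at 6 h and a lower level at 12 h than at 6 h was met by 29 members, beside 5.32% of all. Down-regulation at 3 or 6 h was met by 9 members, beside 19%, and up-regulation at 12 or 24 h by 10, beside 12.7%. Every member was called at 1 stress time or more, whereas 47.1% of all probe sets tested were called at none. Over the whole time course a spline fit passed its limit for 8 members, beside 2.7% of all. This fit stands in for the study's time-course test that chose the members, so nothing is read from the share. Most members did not pass it.

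The 13 flavonoid members formed the most uniform large group. All 13 were up-regulated at 6 h, by 0.80 to 2.11 on the log2 scale with a median of 1.42. Of all probe sets tested 8.67% were, and of the time-course probe sets of other categories 35.3%. All 13 members had their highest mean at 6 h. All 13 were lower at 12 h than at 6 h, with a median difference of -1.66, beside 18.6% of all and 57.7% of the other categories. At 3 h, 8 of the 13 had already passed the limits, but 2 without 0 h replicate 1 or 3 h replicate 1 and 3 without 0 h replicate 2 or 3 h replicate 2. At 24 h the group median was -0.46, 3 members were down-regulated (1 without 24 h replicate 1, 5 without 24 h replicate 2) and none was up-regulated.

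Isoflavone reductase reduces 2'-hydroxyisoflavones to isoflavanones on the way to pterocarpans. For the probe set Gma.5863.2.S1_s_at, described as the soybean enzyme, the log2 intensities of replicates 1 and 2 were 9.45 and 9.52 (0 h), 9.81 and 9.63 (0.5 h), 9.59 and 9.73 (1 h), 10.40 and 10.44 (3 h), 11.63 and 11.56 (6 h), 9.65 and 9.94 (12 h), and 9.36 and 9.65 (24 h). The 6 h arrays were far above every other, the 3 h arrays came next, and the 24 h arrays enclosed those of 0 h. The change was 0.94 at 3 h and 2.11 at 6 h (4.32-fold, SE 0.16, n = 2 arrays per time). The second probe set of that cluster number, Gma.5863.1.S1_at (LOC547659), had a smaller change with the same course, 0.80 at 6 h (SE 0.16) and 0.06 at 24 h. At 24 h the change of the first was 0.02.

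An additional 3 probe sets carry the description isoflavone reductase homolog 1, and 2 of them, the pair GmaAffx.90806.1.S1_at and GmaAffx.90806.1.S1_s_at, share a target. Their log2 changes at 6 h were 1.41 for Gma.16735.2.S1_at, 1.42 for GmaAffx.90806.1.S1_s_at and 1.34 for GmaAffx.90806.1.S1_at. At 12 h they were still 0.38, 0.48 and 0.61, of which the last passed the limits, though not without 0 h replicate 1 (0.54), 0 h replicate 2 (0.68) or 12 h replicate 2 (0.35). No isoflavone reductase member was down-regulated against 0 h at any time. Of the other 8 flavonoid members, 5 were down-regulated at 12 or 24 h.

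The 4 members of the dihydroflavonol reductase family had the largest changes of the flavonoid group at 6 h after the first isoflavone reductase probe set, with a median of 1.94. Dihydroflavonol reductase itself reduces a carbonyl group of a flavonoid with NADPH, and 2'-hydroxydihydrodaidzein reductase acts on the product of isoflavone reductase. The probe set Gma.15664.1.S1_at with this description read 8.89 and 8.89 (0 h), 9.99 and 9.26 (0.5 h), 9.49 and 9.15 (1 h), 9.87 and 10.02 (3 h), 10.76 and 10.79 (6 h), 9.47 and 9.57 (12 h), and 8.69 and 9.43 (24 h). It was 1.89 higher at 6 h (3.7-fold, SE 0.27), and its 24 h arrays lay on both sides of those of 0 h.
A second probe set of that name, GmaAffx.93301.2.S1_s_at (LOC547660), read 8.88 and 8.91 (0 h), 9.90 and 9.21 (0.5 h), 9.22 and 9.07 (1 h), 10.0 and 9.86 (3 h), 10.59 and 10.59 (6 h), 8.95 and 8.92 (12 h), and 8.11 and 8.59 (24 h). It was 1.69 higher at 6 h (SE 0.23) and, unlike the first, both its 24 h arrays were below those of 0 h (-0.54). The 24 h call of this second probe set was kept in 3 of the 14 fits that left out 1 array. In both probe sets 0.5 h replicate 1, an array with low hybridization controls, stood above replicate 2.

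A probe set of the same LOC number that the study's list does not hold, Gma.2712.1.S1_at, was not used by the rule, although it was read from the same RNA pools. Its log2 intensities were 8.07 and 8.11 (0 h), 9.92 and 8.57 (0.5 h), 8.71 and 8.33 (1 h), 9.36 and 9.84 (3 h), 9.73 and 9.98 (6 h), 8.16 and 8.40 (12 h), and 7.23 and 7.93 (24 h). It rose by 1.5 at 3 h (limma, adjusted p = 0.06; 0.195, 0.203 and 0.273 without 0 h replicate 1, 0 h replicate 2 and 3 h replicate 2) and by 1.76 at 6 h (adjusted p = 0.0204, SE 0.39). It then fell by 1.57 from 6 to 12 h (adjusted p = 0.0211), and at 24 h its change of -0.52 did not pass the limits. The arrays of 3 and 6 h were all above those of 0 h and 12 h, and 0.5 h replicate 1 stood as high as they did.

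The remaining reductases had hypothetical Medicago proteins as their closest match. GmaAffx.70800.1.S1_at, of the dihydroflavonol 4-reductase family by its Arabidopsis match, read 6.49 and 6.12 (0 h), 5.63 and 6.28 (0.5 h), 6.18 and 6.54 (1 h), 7.20 and 7.07 (3 h), 8.45 and 8.29 (6 h), 5.42 and 6.20 (12 h), and 5.14 and 5.55 (24 h). Its 6 h arrays were 2.06 above 0 h on average (4.16-fold, SE 0.30), and its 24 h arrays lay below every array of 0 h.
Gma.10095.1.A1_at matched BANYULS, the Arabidopsis anthocyanidin reductase that makes precursors of condensed tannins, and read 6.69 and 6.30 (0 h), 6.01 and 6.18 (0.5 h), 6.57 and 6.90 (1 h), 7.15 and 7.07 (3 h), 8.49 and 8.49 (6 h), 5.62 and 6.55 (12 h), and 5.85 and 6.24 (24 h). The change at 6 h was 1.99 (3.98-fold, SE 0.28), and its 12 h arrays differed by 0.93 and overlapped those of 0 h. From 6 to 12 h the differences of these 2 probe sets were -2.55 and -2.40.

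**Figure D3:**
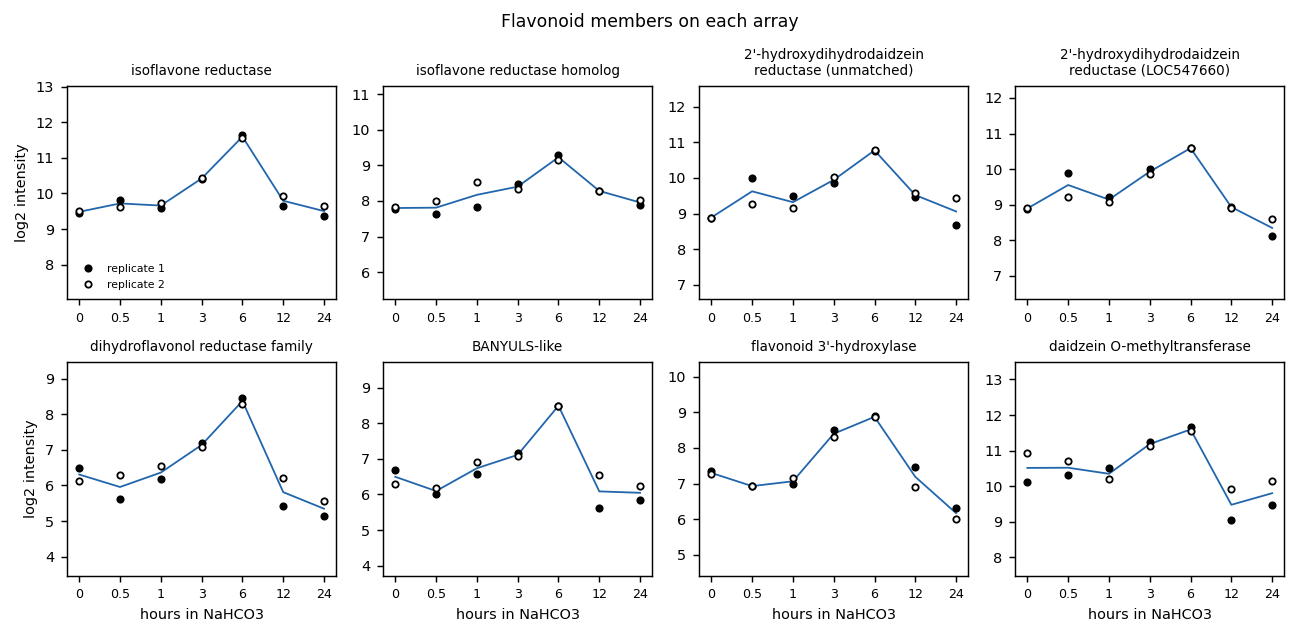
Log2 intensity (vertical axis) of 8 flavonoid members on every array against hours in NaHCO3 (horizontal axis, evenly spaced), with replicate 1 as filled circles, replicate 2 as open circles and a line through their mean. Each panel is centred on its own level. In every panel both 6 h arrays are the highest.

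The flavonoid 3'-hydroxylase adds the hydroxyl group that turns the B ring of a flavonoid from the kaempferol to the quercetin pattern. The member described as CYP75C1 and matching Arabidopsis TT7, GmaAffx.81325.2.S1_at, for which the primers above were designed, was 1.10 higher at 3 h and 1.57 higher at 6 h, and -1.13 at 24 h (SE 0.20). Its 24 h arrays, 6.32 and 6.02 (24 h), were the lowest of the time course. Another probe set of the same cluster number, GmaAffx.81325.1.S1_at, which the study's list holds under another category, was 1.55 higher at 6 h and differed by -0.17 at 24 h (SE 0.36). The difference between the probe sets at 24 h was not tested.

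Another 3 probe sets matched a daidzein 7-O-methyltransferase of licorice, an enzyme that methylates isoflavones. At 6 h they were 1.41 (GmaAffx.92998.1.S1_s_at), 1.40 (GmaAffx.37574.1.S1_s_at) and 1.08 (Gma.3260.1.S1_at) higher. At 12 h they were -0.25, -1.03 and -1.03, and the last 2 passed the limits. Neither did without 0 h replicate 2 (-0.66 and -0.63) or 12 h replicate 1 (-0.72 and -0.60). The first and the last share LOC100819853. The arrays of Gma.3260.1.S1_at were 10.11 and 10.92 (0 h) and 9.05 and 9.91 (12 h), so that both 12 h arrays were below those of 0 h. The arrays of GmaAffx.92998.1.S1_s_at were 9.37 and 10.05 (0 h) and 9.33 and 9.60 (12 h), and here they overlapped.

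The 7 phenylpropanoid members were 4 laccase probe sets and 3 O-methyltransferases. All 7 were up-regulated at 6 h, by 0.83 to 1.46 with a median of 1.14, beside 8.67% of all probe sets tested. Without 0 h replicate 1, 6 h replicate 1 or 6 h replicate 2 the count was 3, and the calls lost were those of the O-methyltransferases and of 1 laccase probe set, GmaAffx.92305.1.S1_at. At 24 h 5 were down-regulated and 1 was up-regulated, with a group median of -0.83, beside 19.6% and 6.07% of all. Only 2 were down-regulated without 0 h replicate 1, 0 h replicate 2 or 24 h replicate 1.

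Laccases are copper enzymes of the cell wall that oxidize phenolics, lignin precursors among them. GmaAffx.92305.1.S1_s_at, which matched Arabidopsis LAC7, read 8.51 and 8.5 (0 h), 8.32 and 8.81 (0.5 h), 8.53 and 8.41 (1 h), 9.90 and 9.91 (3 h), 9.97 and 9.95 (6 h), 8.25 and 8.48 (12 h), and 7.63 and 7.77 (24 h). The arrays of 3 and 6 h formed a plateau more than 1 unit above all others, and those of 24 h lay below all others. The changes were 1.40 at 3 h (2.64-fold), 1.46 at 6 h and -0.81 at 24 h (SE 0.18).
GmaAffx.71596.1.S1_at read 8.74 and 8.70 (0 h), 8.74 and 8.87 (0.5 h), 8.97 and 8.66 (1 h), 9.94 and 9.96 (3 h), 9.88 and 9.85 (6 h), 8.20 and 8.63 (12 h), and 7.79 and 7.99 (24 h). It had the same plateau, 1.23 at 3 h and 1.14 at 6 h, and a late change of -0.83 (SE 0.18). The laccases Gma.5091.1.S1_at and GmaAffx.92305.1.S1_at, the latter sharing its target with the first probe set, were 1.12 and 1.22 higher at 6 h. The median of the 4 laccases was 1.14 at 3 h and 1.18 at 6 h, whereas the median of the flavonoid members went from 0.83 to 1.42.

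O-methyltransferases of the second family transfer a methyl group to the hydroxyl of a phenolic. GmaAffx.15984.1.S1_at read 6.70 and 6.81 (0 h), 6.23 and 5.80 (0.5 h), 5.19 and 5.58 (1 h), 7.39 and 7.51 (3 h), 8.11 and 7.83 (6 h), 5.26 and 5.05 (12 h), and 4.36 and 6.24 (24 h). Its arrays were lower at 0.5 and 1 h without passing the limits, highest at 6 h and below 0 h at 12 h, and the 24 h arrays differed by 1.88. The change was 1.21 at 6 h and -1.60 at 12 h (SE 0.46), of which the 6 h call (adjusted p = 0.13 by limma) was lost when any array of 0, 1, 3 or 6 h was left out, at 1.07 to 1.35. The 12 h call was lost without 0 h replicate 2 (-1.54) and without both arrays with low hybridization controls (-1.49).
GmaAffx.27888.1.A1_at, closest to an orcinol O-methyltransferase of rose, read 7.34 and 7.67 (0 h), 6.92 and 6.34 (0.5 h), 6.13 and 6.58 (1 h), 7.98 and 7.98 (3 h), 8.76 and 8.52 (6 h), 6.01 and 5.67 (12 h), and 5.61 and 7.32 (24 h). Its course was much the same, 1.14 at 6 h and -1.66 at 12 h (SE 0.45), again with 24 h arrays 1.72 apart. Its 6 h call (adjusted p = 0.143 by limma) was lost when any array of 0 to 6 h was left out, at 0.97 to 1.30, and its 12 h call without 0 h replicate 2 (-1.5).

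The third O-methyltransferase had another course. GmaAffx.5705.1.S1_at (LOC100782951) read 8.86 and 9.40 (0 h), 8.34 and 9.12 (0.5 h), 9.04 and 8.78 (1 h), 8.65 and 8.23 (3 h), 9.87 and 10.06 (6 h), 10.57 and 10.39 (12 h), and 9.60 and 10.06 (24 h). All arrays of 6, 12 and 24 h lay above all of 0 h, with changes of 0.83, 1.34 and 0.69 (SE 0.29). It was the only phenylpropanoid member up-regulated at 12 h. Its 6 h call was lost without 0 h replicate 1 (0.56), 6 h replicate 1 (0.93) or 6 h replicate 2 (0.73), and its 24 h call in 10 of the 14 fits that left out 1 array (0.42 to 0.69).

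The terpenoid group held a plastid isoprenoid enzyme and a prenyltransferase seen by 2 probe sets. All 3 probe sets were up-regulated at 3 h and at 6 h, with medians of 0.98 and 1.45, beside 5% and 8.67% of all tested. At 3 h only 1 was without 0 h replicate 2, 3 h replicate 1 or 3 h replicate 2.

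Gma.6859.1.S1_s_at matched ISPF, the cyclodiphosphate synthase of the methylerythritol phosphate pathway, and read 8.09 and 7.98 (0 h), 8.43 and 8.28 (0.5 h), 8.17 and 8.15 (1 h), 8.82 and 9.09 (3 h), 9.16 and 9.16 (6 h), 7.73 and 7.57 (12 h), and 7.53 and 7.81 (24 h). It was 0.92 higher at 3 h and 1.13 higher at 6 h (SE 0.16), and all arrays of 12 and 24 h were below those of 0 h without passing the limits.
Homogentisate phytyltransferase joins homogentisate to a prenyl chain, the entry step of tocopherol synthesis. Its probe set GmaAffx.51374.2.S1_at read 8.58 and 8.0 (0 h), 7.48 and 7.5 (0.5 h), 8.02 and 7.87 (1 h), 9.17 and 9.38 (3 h), 9.84 and 9.63 (6 h), 7.74 and 7.99 (12 h), and 6.29 and 7.13 (24 h). The change was 1.45 at 6 h and -1.58 at 24 h (SE 0.27). The companion GmaAffx.51374.1.S1_at read 8.84 and 8.11 (0 h), 7.91 and 7.68 (0.5 h), 8.48 and 7.91 (1 h), 9.38 and 9.67 (3 h), 10.13 and 9.79 (6 h), 8.19 and 8.43 (12 h), and 6.97 and 7.58 (24 h). The change of 1.49 at 6 h and -1.20 at 24 h (SE 0.30) gave a like course, and in both probe sets the 0 h arrays were further apart than those of 3 h.

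The 6 jasmonate members were mostly highest at 3 h. All 6 were down-regulated at 12 h and all 6 at 24 h, with medians of -1.32 and -1.36. Of all probe sets tested 16.4% and 19.6% were, and of the time-course probe sets of other categories 54.9% and 48.9%. Of the 5 probe sets placed in the 12-oxophytodienoate reductase family, 4 had their highest mean at 3 h. Several of them matched OPR1 or OPR2, and their part in jasmonate synthesis is not known from the descriptions. The probe set described as the tomato OPR3, GmaAffx.6142.1.S1_at, read 8.53 and 8.31 (0 h), 7.30 and 7.18 (0.5 h), 7.21 and 7.60 (1 h), 8.89 and 8.81 (3 h), 8.04 and 8.32 (6 h), 6.76 and 6.61 (12 h), and 7.09 and 7.51 (24 h). OPR3 is the isoform that serves jasmonate synthesis in Arabidopsis. The change of GmaAffx.6142.1.S1_at was -1.18 at 0.5 h already and -1.73 at 12 h (SE 0.20). Only its 3 h arrays were both above those of 0 h, by 0.43 on average, which did not pass the limits.
The probe sets GmaAffx.90530.1.S1_s_at and Gma.4360.1.S1_s_at share LOC100803381. The first is described as the cowpea protein CPRD8 with Arabidopsis OPR1 as its match. The second is described as a pea OPR3 with Arabidopsis OPR1 and OPR2 as its matches. The first read 8.40 and 8.07 (0 h), 9.06 and 8.58 (0.5 h), 8.34 and 8.75 (1 h), 9.72 and 9.53 (3 h), 9.18 and 9.39 (6 h), 7.42 and 6.67 (12 h), and 6.46 and 6.74 (24 h). It was 1.39 higher at 3 h (2.62-fold) and -1.63 at 24 h (SE 0.27), and the second gave 0.95 and -1.45 (SE 0.25). GmaAffx.67883.1.S1_at and GmaAffx.83885.1.S1_at were 0.58 and 0.71 higher at 3 h and -1.07 and -1.26 at 24 h. The Arabidopsis matches of GmaAffx.67883.1.S1_at were OPR1 and OPR2 as well. None of the changes of the LOC100803381 probe sets at 0.5 and 1 h passed the limits. Of the 6 jasmonate members 4 were up-regulated at 3 h, and this count fell to 0 without 0 h replicate 2 and to 1 without 0 h replicate 1 or either 3 h array. The 4 up-regulated at 6 h became 2 without 0 h replicate 2 or 6 h replicate 2.

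The last jasmonate member belongs to the carboxyl methyltransferases, a family that makes methyl jasmonate, methyl salicylate and related esters. Its description names no substrate, so it was placed here by family. Gma.4367.1.S1_at was dim and read 5.36 and 6.19 (0 h), 4.31 and 3.24 (0.5 h), 4.29 and 2.39 (1 h), 6.57 and 5.03 (3 h), 8.70 and 8.64 (6 h), 4.19 and 4.03 (12 h), and 3.24 and 2.67 (24 h). Both 6 h arrays stood more than 2 units above all others, and the replicates at 1 and 3 h differed by 1.91 and 1.54. The change of 2.90 at 6 h (7.46-fold, SE 0.64) was the largest change from 0 h of any member at any time. At 0.5 and 1 h its mean was -2.00 and -2.43 from 0 h, neither of which passed the limits.

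**Figure D4:**
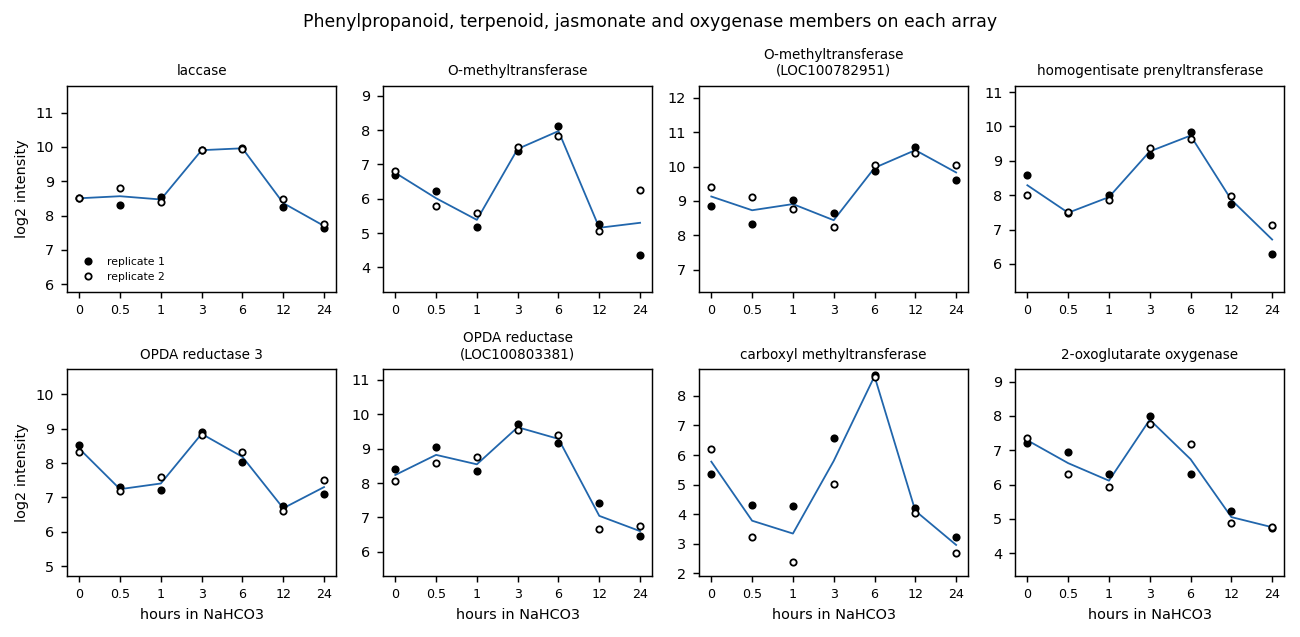
Log2 intensity (vertical axis) of 8 phenylpropanoid, terpenoid, jasmonate and oxygenase members on every array against hours in NaHCO3 (horizontal axis, evenly spaced), with replicate 1 filled, replicate 2 open and a line through the mean. The laccase holds one level at 3 and 6 h, and the carboxyl methyltransferase stands at 8.70 and 8.64 at 6 h.

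The 2-oxoglutarate-dependent oxygenases form a family that includes enzymes of flavonoid, gibberellin and alkaloid metabolism, and the descriptions do not say to which these 5 members belong. Of the 5, 4 were highest at 3 h and lowest at 24 h, and the group median was 0.57 at 3 h and -1.96 at 24 h. Only 1 was up-regulated at 3 h, and none at 6 h.
GmaAffx.47854.1.S1_at read 7.21 and 7.37 (0 h), 6.95 and 6.30 (0.5 h), 6.30 and 5.93 (1 h), 8.01 and 7.77 (3 h), 6.31 and 7.17 (6 h), 5.22 and 4.89 (12 h), and 4.74 and 4.78 (24 h). It was -2.24 at 12 h and -2.53 at 24 h (5.77-fold lower, SE 0.30), and the arrays of both times lay below all others. Gma.15167.1.S1_at read 7.84 and 8.14 (0 h), 7.41 and 6.42 (0.5 h), 6.96 and 6.33 (1 h), 8.46 and 8.65 (3 h), 7.37 and 7.53 (6 h), 6.25 and 6.65 (12 h), and 5.53 and 5.69 (24 h). Its fall by 1.08 at 0.5 h passed the limits narrowly (adjusted p = 0.134 by limma) and in 5 of the 14 fits that left out 1 array, with -0.58 without 0.5 h replicate 2. Its fall by 2.38 at 24 h (SE 0.32) passed them in all 14. GmaAffx.49621.1.S1_at read 6.37 and 6.04 (0 h), 5.59 and 5.25 (0.5 h), 5.54 and 5.34 (1 h), 6.84 and 6.89 (3 h), 5.67 and 5.84 (6 h), 5.39 and 5.26 (12 h), and 4.04 and 4.45 (24 h). It was the member up-regulated at 3 h (0.66, a call lost without any one array of 0 or 3 h at 0.50 to 0.82), and it had fallen by 1.96 at 24 h (SE 0.20).
The fourth with this course, Gma.13895.1.A1_at, changed least of the 4 (-1.22 at 24 h, SE 0.16). Gma.3582.1.S1_at (LOC100789278), which matched the Arabidopsis gene At3g50210, had another course, -1.06 at 6 h and 0.88 at 12 h (SE 0.25).

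Of the 3 members that resembled alkaloid enzymes, each had a course of its own. Such resemblance places a protein in a family and says little of its substrate in soybean. The berberine-bridge-like GmaAffx.52033.1.S1_s_at (LOC100775893), of a family of flavin-dependent oxidases, read 9.74 and 10.18 (0 h), 9.22 and 9.48 (0.5 h), 9.30 and 9.07 (1 h), 9.69 and 9.57 (3 h), 8.62 and 8.39 (6 h), 6.82 and 7.39 (12 h), and 8.14 and 8.18 (24 h). Its arrays of 6, 12 and 24 h lay below all earlier ones, and the change of -2.85 at 12 h (7.22-fold lower, SE 0.22) was the largest fall of any member at that time. Gma.17864.1.S1_at, of the same LOC number and in another category of the study's list, gave -1.46 at 12 h and -1.27 at 24 h (SE 0.21).
The strictosidine synthase-like GmaAffx.75948.1.S1_at read 7.92 and 8.01 (0 h), 8.28 and 8.11 (0.5 h), 8.08 and 8.0 (1 h), 8.70 and 8.5 (3 h), 9.12 and 9.22 (6 h), 8.01 and 8.18 (12 h), and 7.90 and 7.91 (24 h). Its change of 1.21 at 6 h (SE 0.15) had gone by 12 h (0.13). The tropinone reductase-like Gma.5113.1.S1_s_at, of a family of short-chain dehydrogenases, read 8.95 and 8.92 (0 h), 9.05 and 8.96 (0.5 h), 8.99 and 8.78 (1 h), 9.02 and 8.93 (3 h), 8.35 and 8.17 (6 h), 9.30 and 9.52 (12 h), and 8.34 and 8.37 (24 h). It was below 0 h at 6 and 24 h (-0.68 and -0.58) and above it at 12 h (0.47, SE 0.15). The 6 h call was lost without 6 h replicate 2 (-0.59), and the 12 h call without 0 h replicate 1, 0 h replicate 2 or 12 h replicate 2.

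Ferrochelatase inserts iron into protoporphyrin, the last step to haem. Gma.1824.1.S1_at (LOC100813423) read 9.54 and 9.52 (0 h), 9.38 and 9.30 (0.5 h), 9.27 and 9.40 (1 h), 9.77 and 9.76 (3 h), 9.86 and 9.72 (6 h), 8.27 and 8.23 (12 h), and 8.46 and 8.48 (24 h). The arrays of 12 and 24 h were below all others, with changes of -1.28 and -1.06 (SE 0.13). The second ferrochelatase member, GmaAffx.50901.2.S1_at, read 7.80 and 7.78 (0 h), 7.97 and 7.59 (0.5 h), 7.39 and 7.5 (1 h), 8.26 and 8.23 (3 h), 8.01 and 8.06 (6 h), 6.71 and 6.69 (12 h), and 6.20 and 6.17 (24 h). It was -1.09 at 12 h and -1.60 at 24 h (SE 0.15).
A probe set with the cluster number of the second but outside the study's list, GmaAffx.50901.1.S1_at, had 24 h arrays of 4.81 and 4.74 (24 h), below its 0 h arrays of 5.87 and 5.49 (0 h). It fell by 0.68 at 12 h (limma, adjusted p = 0.044, but -0.50 and no call without 0 h replicate 1 or 12 h replicate 2) and by 0.90 at 24 h (adjusted p = 0.0133, SE 0.19).

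The 13 members of mixed function had no common course, and their medians stayed between -0.77 and 0.02 at all times. The sulfotransferase Gma.6643.2.S1_at, of enzymes that add sulfate to small molecules, read 4.72 and 4.42 (0 h), 3.68 and 4.17 (0.5 h), 4.91 and 5.05 (1 h), 4.69 and 4.35 (3 h), 5.71 and 5.45 (6 h), 6.53 and 6.90 (12 h), and 3.29 and 4.17 (24 h). Both 12 h arrays were above all others (2.15, 4.43-fold, SE 0.29), and at 24 h the level was back below 0 h (-0.84). The summed intensity of the nodule markers, mostly that of GLB3, was highest on the same 12 h arrays. The part of these markers in this course and in those of the pectate lyase and of GmaAffx.5705.1.S1_at was not tested.
Gma.6643.1.A1_at, of the same cluster number and outside the study's list, read 4.53 and 4.73 (0 h), 4.16 and 4.02 (0.5 h), 5.34 and 4.98 (1 h), 5.05 and 3.73 (3 h), 5.94 and 4.97 (6 h), 6.22 and 7.48 (12 h), and 3.77 and 4.37 (24 h). It rose by 2.22 at 12 h (limma, adjusted p = 0.0171, SE 0.50) and differed by -0.56 at 24 h (adjusted p = 0.503). The uncharacterized GmaAffx.70005.1.S1_s_at read 7.49 and 8.23 (0 h), 7.59 and 6.92 (0.5 h), 7.22 and 6.56 (1 h), 8.45 and 8.60 (3 h), 8.81 and 8.57 (6 h), 5.67 and 6.20 (12 h), and 5.89 and 6.55 (24 h). It was lower at 12 and 24 h (-1.92 and -1.64, SE 0.35) with no overlap with the earlier times. Gma.6134.1.S1_at, likewise of unknown function, read 7.86 and 7.75 (0 h), 5.83 and 5.45 (0.5 h), 6.59 and 5.51 (1 h), 7.68 and 7.83 (3 h), 7.61 and 7.36 (6 h), 6.09 and 7.25 (12 h), and 5.90 and 5.82 (24 h). It was the member with the largest called change at 0.5 h, -2.17 (SE 0.39), and stood at -0.05 at 3 h before falling again.

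The members of the next paragraphs lay outside the rule for naming, except that the desaturase-like one is among the last 3 of the study's list, and were chosen after their values were seen because their courses opposed the common one. The pectate lyase Gma.1326.1.S1_at (LOC100101868), of enzymes that cleave cell wall pectin, was 1.51 higher at 12 h and 1.30 higher at 24 h (SE 0.18). Of 3 other probe sets with this LOC number, none of them in the study's list, Gma.1326.1.S1_a_at rose by 1.70 at 12 h (limma, adjusted p = 0.000704) and Gma.1326.3.S1_at by 1.79 (adjusted p = 0.000524). GmaAffx.37672.1.A1_at gave 0.77 (adjusted p = 0.352), with 12 h arrays of 7.52 and 5.65 (12 h). At 24 h they differed from 0 h by 0.49 (adjusted p = 0.143), -0.10 (adjusted p = 0.78) and 0.56 (adjusted p = 0.502), of which the first passed the limits and did not when any array of 0, 6 or 24 h was left out (0.38 to 0.60).

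The probe sets described as a ZIP protein and as a desaturase-like protein had like courses. The ZIP probe set Gma.11711.1.A1_at read 7.64 and 7.58 (0 h), 7.09 and 7.95 (0.5 h), 7.54 and 7.40 (1 h), 6.86 and 7.0 (3 h), 6.07 and 5.43 (6 h), 5.39 and 6.40 (12 h), and 8.68 and 8.61 (24 h). The desaturase-like GmaAffx.49796.2.A1_at read 7.53 and 7.04 (0 h), 6.58 and 7.67 (0.5 h), 7.05 and 7.15 (1 h), 6.67 and 7.05 (3 h), 5.83 and 5.34 (6 h), 5.21 and 5.89 (12 h), and 8.14 and 8.23 (24 h). Both were low at 6 and 12 h (-1.86 and -1.70 at 6 h) and highest at 24 h (1.03 and 0.90, SE 0.35 and 0.36). Their 24 h calls were kept in 10 and 6 of the 14 fits that left out 1 array. The companion GmaAffx.49796.2.S1_at had a mean log2 of 3.51, below the background of 3.91, and was not tested.
The gene for GDP-L-galactose phosphorylase, of ascorbate synthesis (Gma.16663.1.S2_at, matching At4g26850), was also lowest at 12 h (-1.42) and highest at 24 h (0.60, SE 0.14). The summed log2 intensity of the green tissue markers moved alongside, with 12.93 and 12.50 (0 h), 11.22 and 11.00 (6 h), 10.34 and 10.80 (12 h), and 13.18 and 13.38 (24 h). The sum mostly follows bright CAB3 probe sets, of which the brightest ranged from 5.85 to 12.10 over all arrays. Not all markers moved so, since a PSAD probe set stayed within 9.16 to 9.71 and a dimmer CAB3 probe set within 5.57 to 6.58. The part of the green tissue markers in these 3 courses was not tested.

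**Figure D5:**
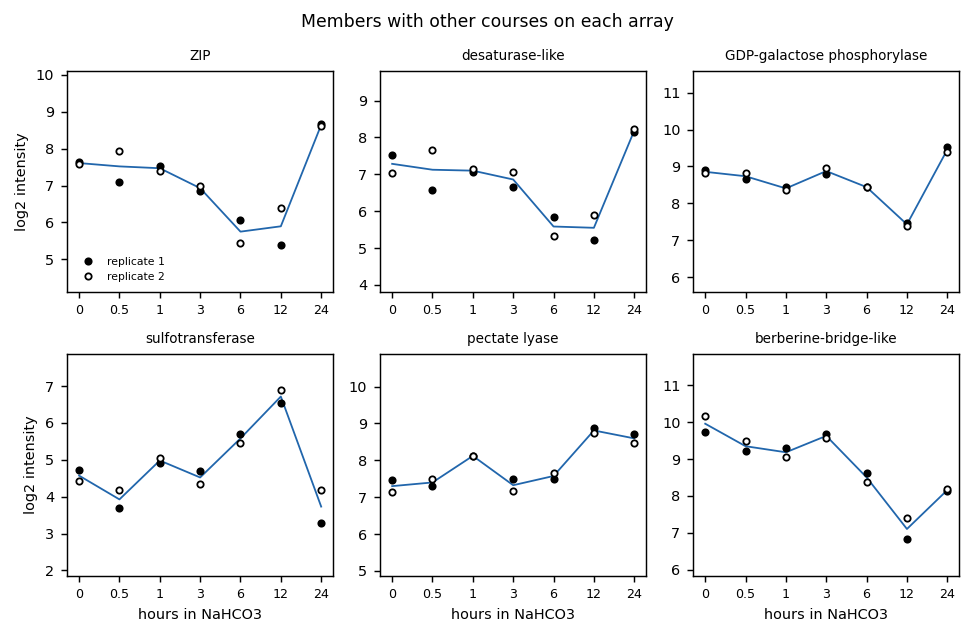
Log2 intensity (vertical axis) of 6 members on every array against hours in NaHCO3 (horizontal axis, evenly spaced), with replicate 1 filled, replicate 2 open and a line through the mean. The ZIP and desaturase-like probe sets are lowest at 6 and 12 h and highest at 24 h, the sulfotransferase peaks at 12 h, and the berberine-bridge-like probe set is lowest at 12 h.

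The 6 remaining members changed less. The oxysterol-binding protein GmaAffx.78365.1.S1_at, of a family of lipid carriers, and the wax synthase GmaAffx.80190.1.A1_at had the common course, 0.47 and 0.91 at 6 h and -1.29 and -1.27 at 24 h. The GH3 auxin-conjugating enzyme GmaAffx.91114.1.S1_s_at was 0.74 at 3 h and -1.16 at 24 h. The molybdenum cofactor protein GmaAffx.55456.1.S1_at (MoaC region) was lowest at 6 h (-1.23). The uncharacterized GmaAffx.15019.1.S1_at was -0.76 at 3 h and 0.70 at 24 h, and GmaAffx.53996.2.S1_at, matching the thiamin pyrophosphokinase gene At2g44750, stayed within 0.46 of 0 h. A companion of the latter outside the study's list, GmaAffx.53996.1.A1_at, was called at no time. In the study's ordering of its list the last members were GmaAffx.47854.1.S1_at, Gma.6134.1.S1_at and GmaAffx.49796.2.A1_at, whose largest changes were -2.53, -2.17 and -1.73. The values of probe sets just outside the study's limit were not analysed here.

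Enzymes of the same pathways that carry a symbol and stand outside the category gave 123 probe sets of 63 symbols, and 96 were tested. Several can measure 1 gene, so the counts are of probe sets and not of genes. Of the 96, 17 were in other categories of the study's list, so counts are given for the 79 that were not. At 3 h, 27 of the 79 were up-regulated and 2 down-regulated, and at 6 h, 42 and 0. The 27 became 5 without 0 h replicate 1, 0 h replicate 2 or 3 h replicate 1 and 6 without 3 h replicate 2. The 42 became 20 without 0 h replicate 1, 24 without 6 h replicate 1 and 19 without 6 h replicate 2. Of all probe sets tested, 5% and 12% were called at 3 h and 8.67% and 12.1% at 6 h, as given above. From 6 to 12 h, 54 of the 79 fell past the limits and none rose, beside 18.6% and 15.3%, and 35 fell without 6 h replicate 2. Their median change reached 0.95 at 6 h, after 0.47 at 3 h, and was -0.32 and -0.15 at 12 and 24 h. The list of flavonoid and isoflavonoid enzymes gave 30 of the 42, out of 38 tested, with a median of 1.20 beside 1.42 in the flavonoid members. It holds by its symbol a probe set of the triterpene enzyme CYP93E1, which the triterpene list holds too, and without it 29 of 37 were up-regulated with the same median of 1.20. The 30 became 15 without 0 h replicate 1, 18 without 6 h replicate 1 and 13 without 6 h replicate 2.

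Within that list the flavanone 3-hydroxylase F3H (Gma.5461.1.S1_at), which makes dihydroflavonols, read 4.09 and 4.34 (0 h), 2.29 and 2.51 (0.5 h), 3.68 and 3.60 (1 h), 5.94 and 5.27 (3 h), 7.97 and 7.90 (6 h), 4.94 and 4.48 (12 h), and 2.97 and 4.02 (24 h). It rose by 3.72 at 6 h (limma, adjusted p = 0.000364, SE 0.33). The glyceollin prenyltransferase G4DT (GmaAffx.90946.1.S1_at) rose by 2.24 (adjusted p = 0.00505).

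In the other lists, general phenylpropanoid enzymes had 4 of 11 up-regulated at 6 h and 11 of 11 lower at 12 h than at 6 h (7 without 6 h replicate 2). The ammonia-lyase PAL2.1 (GmaAffx.86773.2.S1_at) had the largest such fall, 3.97 (adjusted p = 0.0421), which was 1.37 without 12 h replicate 2 (adjusted p = 0.0356), where it read 3.01 against 8.21 on replicate 1. Without 12 h replicate 1 the change was -6.58, and without 6 h replicate 2 the call was lost (-3.85). The ligase 4CL3 (Gma.8449.1.S1_at), of the study's list, was 2.15 lower at 12 h than at 6 h. Of the lignin enzymes, 8 probe sets of 2 symbols, none was up-regulated at 6 h and 4 were down-regulated at 12 h (1 without 0 h replicate 1, 0 h replicate 2 or 12 h replicate 2), with CCR (Gma.1445.1.S1_at), cinnamoyl-CoA reductase, falling by 0.87 (adjusted p = 0.00468). The hydroxylase CYP98A2 (Gma.5578.1.S1_x_at) fell by 0.63 (adjusted p = 0.0915), and without 12 h replicate 2 this call was lost (-0.61, adjusted p = 0.212), as it was without 0 h replicate 1 (-0.68), without 0 h replicate 2 (-0.58) and without 12 h replicate 1 (-0.66).

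DXR1, which acts before ISPF in the isoprenoid pathway, was measured by 2 tested probe sets. The one outside the study's list, Gma.3107.1.S1_at, rose by 0.67 at 3 h (adjusted p = 0.0884) and by 0.75 at 6 h (adjusted p = 0.0449, SE 0.20). Its 3 h call was lost when any array of 0 or 3 h was left out, with values of 0.60 to 0.74, and its 6 h call without 0 h replicate 2 (0.68), 6 h replicate 1 (0.72) or 6 h replicate 2 (0.77). The other, GmaAffx.79040.1.S1_at, was 0.93 higher at 3 h, and 0.82 and no longer called without 0 h replicate 2. Triterpene enzymes had 2 of 5 up-regulated at 6 h (1 without any one array of 0, 6 or 24 h), of which CYP93E1 (Gma.5510.2.S1_s_at), of soyasaponin synthesis, rose by 2.17 (adjusted p = 0.00616, SE 0.36) and stayed 1.91 higher at 12 h (adjusted p = 0.00789). Its companion Gma.5510.1.S1_at, of the study's list, was 2.11 higher at 6 h.

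The jasmonate list held lipoxygenases and allene oxide synthases and cyclases. Of its 17 tested probe sets outside the study's list, 6 were up-regulated at 6 h and none at 3 h. At 12 h, 11 of the 17 were lower than at 6 h. The 6 were probe sets of LOX7, LOX9 and AOC6, so some measured the same gene, and none was of an allene oxide synthase. The 6 became 1, 2 and 3 without 0 h replicate 1, 6 h replicate 1 and 6 h replicate 2, and the 11 became 4, 5 and 5 without 6 h replicate 1, 6 h replicate 2 and 12 h replicate 2. The largest such falls, of the lipoxygenases LOXB1 (GmaAffx.89726.1.A1_s_at, 3.59, adjusted p = 0.122) and LOX9 (GmaAffx.81415.1.S1_at, 2.83, adjusted p = 0.0839), rested on 12 h replicate 2. Without it the changes were -0.25 (adjusted p = 0.714) and -0.87 (adjusted p = 0.493), and without 12 h replicate 1 they were -6.92 and -4.79. Both calls were also lost without either 6 h array, at -3.58 and -3.60 for LOXB1 and -2.51 and -3.14 for LOX9, and that of LOXB1 without either 3 h array (-3.59). The LOXB1 probe set read 10.91 and 4.24 on the arrays of 12 h, and the LOX9 probe set 5.24 and 1.32. No jasmonate member had replicates so far apart at 12 h.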

How the data were processed

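The authors hybridized 14 arrays and computed the deposited intensities with dChip from the perfect-match probes, having scaled 1 array of each time to the median of all and fitted the other to it by an invariant set. The linear intensities, raised to at least 1, were used here as log2 values. Soybean probe sets entered the tests with a mean log2 above the 95th percentile of 23350 probe sets of pathogens (3.91) and a median SD/mean of replicates under 0.5, which left 28567. limma 3.58.1 in R 4.3.3 fitted 7 groups over all arrays (prior df 3.24, residual df 7) and was tested on simulated data, and p-values measure the spread between 2 pools of 3 plants. Figures were drawn with matplotlib in Python. The members and lists were chosen with earlier results of these data known. Written out with all arrays are, per group, the 3 members with the largest change from 0 h (5 in the flavonoid, phenylpropanoid and terpenoid groups), and of each pathway list up to 2 called probe sets. The 3 last members of the study's list are named too. Genome coordinates were not used here. The spline ran on the rank of the time point, with 4 degrees of freedom and a limit of adjusted p under 0.001. Alternatives were another offset, scaling, filter, threshold and test, fewer arrays and a replicate block. Equal replicate numbers did not pair arrays, since of 21 correlations between them, from -0.349 to 0.295, only 6 exceeded 0.1. The study's own statistics and QRT-PCR values were not used.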

Additional observations from a re-analysis of the deposited data

How the results depend on the processing

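Counts are given as up-regulated/down-regulated, for members and then, as lists, for the 96 pathway probe sets. As reported the members gave 0/5 (0.5 h), 0/1 (1 h), 22/2 (3 h), 31/9 (6 h), 6/26 (12 h), 6/31 (24 h) and 6/40 (12 h against 6 h), and the lists 38/2, 57/1, 15/19, 7/27 and 0/69 from 3 h on. Counts that moved by over 1.5 times follow, and the cause was not tested. At an adjusted p under 0.05, members were 2 down at 0.5 h, 0 down at 1 h, 9/1 at 3 h and 3 up at 24 h, and lists 13/1 (3 h), 5/11 (12 h) and 3/17 (24 h). With log2(intensity + 16), members were 1 up at 0.5 h and 1/3 at 1 h, and lists 11 up at 24 h. With quantile normalization members were 1/2 at 1 h and 11 up at 12 h, and lists 1 down at 3 h, 3 down at 6 h and 16 up at 24 h. With centring members were 1 up at 1 h and 10 up at 12 h, lists 1 down at 3 h and 19 up at 24 h, and 5 members rather than 8 passed the spline limit. Without the filter members were 2 down at 0.5 h and 0 down at 1 h, lists 2 down at 6 h and 1 up for 12 h against 6 h, and 2 members passed the spline limit. With only the 4 arrays compared members were 2 down at 0.5 h and 0 down at 1 h, and lists 1 down at 3 h, 6 down at 6 h and 1 up for 12 h against 6 h. With the replicate block members were 0 down at 1 h and lists 1 down at 3 h, and no other of these counts moved by over 1.5 times. With the methods' t-test after adjustment members were 0 down at 0.5 and 1 h, 1/0 at 3 h, 11/0 at 6 h, 0/0 at 12 and 24 h and 1/11 for 12 h against 6 h, and lists 0/0 at 3 h, 15/0 at 6 h, 0/0 at 12 and 24 h and 9 down for 12 h against 6 h. Without 0.5 h replicate 1 and 12 h replicate 2, an alternative chosen after seeing the data, members were 2 down at 1 h and 4 down at 3 h, and lists 2 down at 6 h and 12 down at 12 h, while lists up at 3 and 6 h were 46 and 68 and lists down at 24 h 34.

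Leaving out each array in turn, with a lone array assumed to vary like the other groups, gave members 0 to 2 up and 2 to 7 down at 0.5 h, 0 up and 0 to 2 down at 1 h, 7 to 24 and 1 to 3 at 3 h, 20 to 31 and 6 to 9 at 6 h, 3 to 7 and 18 to 29 at 12 h, 2 to 6 and 24 to 33 at 24 h, and 5 to 6 and 37 to 41 for 12 h against 6 h. The lists gave 7 to 41 and 1 to 2 at 3 h, 32 to 62 and 0 to 2 at 6 h, 6 to 16 and 9 to 29 at 12 h, 3 to 9 and 16 to 30 at 24 h, and 0 up and 47 to 70 down for 12 h against 6 h. The lowest counts of members up came without 0 h replicate 2 at 12 h (3) and without 0 h replicate 1 (2) or 24 h replicate 2 (3) at 24 h. For the lists up at 3 h they were 9 and 7 without 0 h replicates 1 and 2 and 9 without either 3 h array, up at 12 h 6 and 8 without 0 h replicates 1 and 2 and 8 without 12 h replicate 1, and down at 12 h 9 without 0 h replicate 2, 29 without 12 h replicate 1 and 11 without 12 h replicate 2. Of 897 values for 39 named results, 829 kept their direction and call, 68 kept the direction without the call, and 0 reversed. Leaving out an array outside the comparison cannot move the log2 change, and the results were named for large changes. Kept directions were therefore largely fixed in advance, and nothing is read from these counts. The methods' t-test after adjustment, an alternative added for these results after seeing the data together with the threshold, the filter and the fit of 4 arrays, called 7 of the 39, an adjusted p under 0.05 called 35, the fit of only the 4 arrays 36 and the fit without the filter 38. With 2 arrays per time, small changes and dim probe sets are the least certain.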
